A study of Rattus norvegicus with 12 samples.

Results

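The atrial marker genes Sln, Myl4, Myl7, Bmp10, Dkk3 and Stard10 were read library by library in RNA from rat hearts. They were chosen by name, and all 6 were found among the 34322 genes of the deposited count tables. Male wild-type SD (Sprague-Dawley) rats received sorafenib, a kinase inhibitor used against cancer, at 50 mg per kg by gavage each day, or an equal volume of deionized water. Hearts were taken after 14 or 28 days, which gave 4 groups of 3 libraries: water day 14, sorafenib day 14, water day 28 and sorafenib day 28. The series concerns the cardiac toxicity of sorafenib and the splicing factor RBM20. The labels give the tissue as heart and do not say which chamber was taken. They give no age for the rats. Nor do they state that the libraries of a group stem from different rats, and p-values therefore refer to the variation among libraries, which may be technical.

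The upper and lower chambers of the heart use different versions of several muscle proteins. Atrial muscle makes the myosin light chains encoded by Myl4 and Myl7, and ventricular muscle those encoded by Myl3 and Myl2. Sarcolipin, from Sln, and phospholamban, from Pln, are small membrane proteins that restrain the calcium pump SERCA2a, and in rodents sarcolipin is mainly atrial. BMP10 is a growth factor secreted by atrial muscle, DKK3 is a secreted relative of the Dickkopf Wnt inhibitors, and STARD10 is a phospholipid transfer protein. A piece of heart that held more atrium would thus be read with more of these transcripts together.

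Total counts were 13746366 to 18534816 per library at day 14 and 16785038 to 26403196 at day 28, except for sorafenib day 28 replicate 3, with 1036483. In that library a single count equals 0.965 CPM (counts scaled to a common library total, before normalization), so genes near 1 CPM rest there on 1 or 2 counts. Levels below are CPM after TMM normalization, a scaling that sets libraries on a common footing, and are given by group and replicate number.

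The libraries read as ventricular muscle. Myl2 was at 2304 to 6021 CPM over the 12 libraries, Myl3 at 2427 to 6162 and Pln at 1707 to 4182. The most any of the 6 atrial genes reached was 171 CPM, for Dkk3. Ordered by mean CPM per kilobase of exon, Myl7 stood at 32.6, Dkk3 at 18.5, Stard10 at 4.02, Myl4 at 2.56, Sln at 0.926 and Bmp10 at 0.351, against 4180 for Myl3, 3356 for Myl2 and 1264 for Pln. The place of Myl7 at the head of this order is set by some of the libraries: its median was 10.02 CPM per kilobase against 18.1 for Dkk3, and it exceeded Dkk3 on that scale in 5 of 12. In water day 14 Myl7 and Dkk3 were at 29.7 ± 50.8 and 23.8 ± 4.27 CPM per kilobase (SD, n = 3) and did not differ beyond their spread. Dkk3 stood clear of Stard10, at 2.94 ± 0.149, and Stard10 of Myl4, at 1.32 ± 0.428, though in water day 28 Stard10 and Myl4 overlapped, with 4.97 ± 0.594 and 5.63 ± 6.39. Myl4 and Sln, at 1.51 ± 1.36, did not differ beyond their spread in water day 14, and neither did Sln and Bmp10, at 0.343 ± 0.123.

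**Figure D1:**
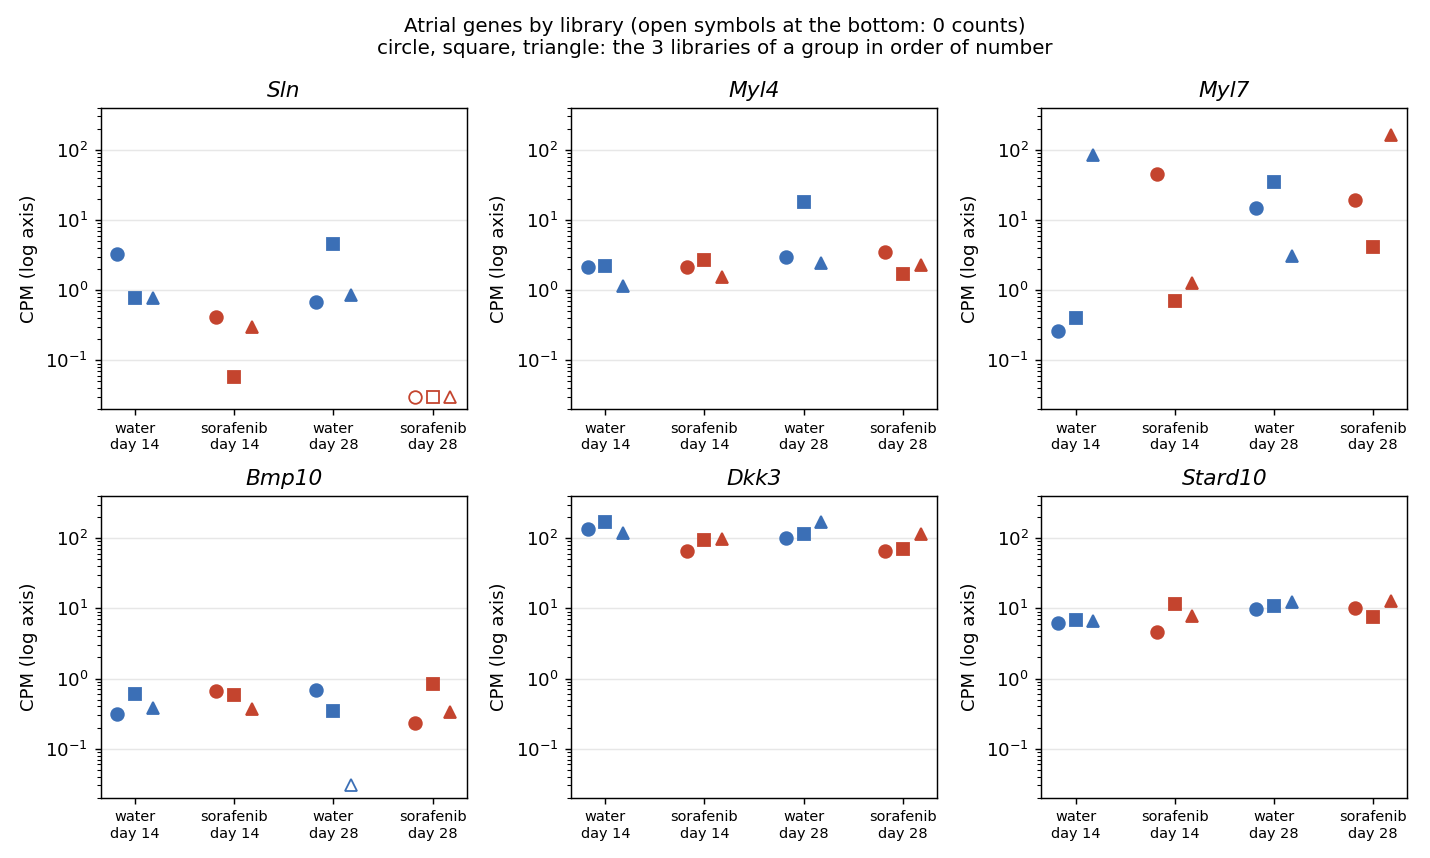
Each panel shows 1 gene and each symbol 1 library, in CPM on a log axis, with water in blue and sorafenib in red. Myl7 runs from 0.261 to 165 CPM with high and low libraries in every group, Sln is at 0 in the 3 sorafenib libraries of day 28, and Myl4 stands out in water day 28 replicate 3 alone.

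Sln lay lower in the sorafenib libraries than in the water libraries at each day. The gene is on chromosome 8, positions 54221389 to 54248110 of the mRatBN7.2 assembly, plus strand. At day 14 it had 3.23, 0.763 and 0.760 CPM in water replicates 2, 3 and 7, from 62, 15 and 14 counts. Sorafenib replicates 5, 6 and 7 had 0.420, 0.0575 and 0.303 CPM, from 7, 1 and 5 counts. The groups did not overlap, and water replicate 2 stood well above the other 2 water libraries.

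At day 28 water replicates 2, 3 and 4 had 0.688, 4.58 and 0.853 CPM of Sln, from 14, 93 and 18 counts. All 3 sorafenib libraries had 0 counts. Again the groups did not overlap, although a single count in the shallow sorafenib replicate 3 would equal 0.836 CPM, above water replicate 2. Such a full separation downward was seen in 10.6% of the 17406 genes tested at day 14 and in 11.9% of the 17021 tested at day 28. For both days at once it was seen in 3.36% of the 18174 genes of the fit of all 12 libraries. Among the 6 atrial genes, Sln was separated in this way at both days, Dkk3 at day 14 alone, and the other 4 at neither day.

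Because 1 group held no count, the size of the Sln difference at day 28 is a bound. The 125 counts of the water libraries gave 2.02 CPM when summed, and 3 counts over the sorafenib group, the limit that a count of 0 allows, equal 0.0893 CPM. Sln was therefore at least 22.7-fold lower with sorafenib at day 28. This bound covers only the counting error of the sorafenib group and takes the water level as it stands. With 3 counts in each library as the floor it was at least 7.56-fold lower. The bound rests largely on 1 water library: without water day 28 replicate 3 it was at least 8.64-fold. Without sorafenib replicate 2 or 4 it was at least 10.96-fold or 12.5-fold. The shallow sorafenib replicate 3 adds little to it, since 3 counts in that library alone equal 2.51 CPM, above the level of 2 of the 3 water libraries, and the bound without it was at least 21.9-fold. At day 14 the summed level was 6.18 times as high in water as in sorafenib (exact binomial 95% interval 3.44 to 12.1, counting error only, 91 against 13 counts). Without water day 14 replicate 2 that ratio was 2.96 (1.49 to 6.21).

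The fitted test gave the same direction for Sln with different calls. With edgeR's quasi-likelihood test and Benjamini-Hochberg adjustment over all genes, Sln passed for the mean of both days (adjusted p = 0.0235). It read lower in 6 of 6 sorafenib libraries than in every water library of the same day. The shallow day 28 replicate 3, whose place is not settled, is among the 6. Sln did not pass within day 14 (log2 fold change -2.58 ± 0.78 SE, adjusted p = 0.209) or within day 28 (adjusted p = 0.163). No fitted size is given for day 28 or the mean, since it depends on the count added to the empty group. The call for the mean was lost without water day 14 replicate 3, sorafenib day 14 replicate 6 or sorafenib day 28 replicate 2, with edgeR adjusted p from 0.0524 to 0.0856.

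Dkk3, which had the most CPM of these genes in all but 1 library, was lower with sorafenib on average, by a smaller step. It lies on chromosome 1, positions 166237969 to 166281271, minus strand. At day 14 the water libraries had 137, 169 and 119 CPM in replicates 2, 3 and 7, and the sorafenib libraries 65.0, 94.98 and 97.3 CPM in replicates 5, 6 and 7. The group means were 142 ± 25.5 and 85.8 ± 18.1 CPM (SD, n = 3), with no overlap.

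At day 28 Dkk3 was at 101, 114 and 171 CPM in water replicates 2, 3 and 4 and at 66.0, 70.2 and 115 CPM in sorafenib replicates 2, 3 and 4. These groups overlapped, since sorafenib replicate 4 lay above 2 water libraries. The log2 fold change was -0.72 ± 0.19 (SE) at day 14 (edgeR adjusted p = 0.17), -0.57 ± 0.25 at day 28 (adjusted p = 0.318) and -0.66 ± 0.18 for the mean of both days (adjusted p = 0.0491). The last call stands at the threshold. It was lost in 11 of 17 alternatives, among them the leaving out of any of 10 libraries, with edgeR adjusted p up to 0.148 (without sorafenib day 28 replicate 2). In each of the 17 the log2 fold change stayed between -0.83 and -0.54. DESeq2 gave an adjusted p of 0.00983 for the mean and called Dkk3 at day 14 (0.023), while at day 28 no alternative called it.

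Myl7 behaved unlike the others: its highest level was 632 times its lowest, with high and low libraries inside the same group. The gene is on chromosome 14, positions 80780684 to 80783259, minus strand. At day 14 water replicates 2 and 3 had 0.261 and 0.407 CPM, from 5 and 8 counts, and water replicate 7 had 84.3 CPM, from 1553 counts. Sorafenib replicate 5 had 45.8 CPM at that day, and replicates 6 and 7 had 0.690 and 1.27 CPM. One library of each group was thus high and the other 2 were near 1 CPM or below.

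At day 28 the Myl7 values were 14.9, 34.7 and 3.08 CPM in water replicates 2, 3 and 4, and 19.1, 4.18 and 165 CPM in sorafenib replicates 2, 3 and 4. Sorafenib replicate 4 was the highest of all 12 libraries. The treatment groups overlapped at each day, and no comparison passed: the log2 fold change was -0.81 ± 2.51 (SE) at day 14, 1.95 ± 1.31 at day 28 and 0.56 ± 1.48 for the mean (edgeR adjusted p = 0.916, 0.521 and 0.856). Leaving out 1 library turned the sign in each of these. The spread of Myl7 around its group means was 2.56 as an SD of log2 CPM, larger than that of all but 2 of 15754 genes with a mean of at least 1 CPM, for which the median was 0.25.

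Myl4, the essential light chain of the atria, stayed low in 11 libraries and was raised in 1. It starts on chromosome 10 at position 89449456 and ends at 89485365, plus strand. Its first exonic bases overlap those of Cdc27 on the opposite strand, whose gene ends at 89449823. The counts were made without strand, so reads there cannot be told apart. Values at day 14 were 2.14, 2.19 and 1.14 CPM in water replicates 2, 3 and 7 and 2.10, 2.64 and 1.51 CPM in sorafenib replicates 5, 6 and 7.

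At day 28 Myl4 was at 2.95, 17.98 and 2.42 CPM in water replicates 2, 3 and 4, from 60, 365 and 51 counts. Sorafenib replicates 2, 3 and 4 had 3.46, 1.67 and 2.26 CPM, the middle one from 2 counts. Only water replicate 3 was out of the range of the others, and the groups overlapped at both days. The log2 fold change was 0.20 ± 0.37 (SE) at day 14, -1.49 ± 0.74 at day 28 and -0.66 ± 0.46 for the mean (edgeR adjusted p = 0.84, 0.375 and 0.391). Without water day 28 replicate 3 the difference at day 28 was 0.02.

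Water day 28 replicate 3 was high in Sln, Myl4 and Myl7 together. It had the highest Sln (4.58 CPM) and the highest Myl4 (17.98 CPM) of all 12, the highest Myl7 of its group (34.7 CPM), and 250 CPM of Nppa, the atrial natriuretic peptide gene, second only to sorafenib day 28 replicate 2 with 295 CPM. Bmp10 (0.345 CPM), Dkk3 (114 CPM) and Stard10 (10.7 CPM) each lay in the middle of its group. Sorafenib day 28 replicate 4 was high in another set, with the highest Myl7 (165 CPM) and Stard10 (12.9 CPM) of all 12 libraries and the highest Dkk3 of its group (115 CPM).

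Bmp10 was close to the limit of detection throughout. Located on chromosome 4, positions 119872066 to 119877694, plus strand, it had at most 14 counts in any library. At day 14 it was at 0.313, 0.611 and 0.380 CPM in water replicates 2, 3 and 7 and at 0.661, 0.575 and 0.363 CPM in sorafenib replicates 5, 6 and 7. At day 28 the values were 0.688, 0.345 and 0 CPM in water and 0.230, 0.836 and 0.332 CPM in sorafenib, the 0.836 standing for 1 count in the shallow library. The groups overlapped at each day. The log2 fold change was 0.29 ± 0.51 (SE) at day 14 and 0.09 ± 0.61 for the mean (edgeR adjusted p = 0.825 and 0.951), and at day 28 alone the gene did not pass the filter on low counts.

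Stard10, on chromosome 1 at positions 155722637 to 155748007, plus strand, varied least after Dkk3. Its levels at day 14 were 6.21, 6.87 and 6.57 CPM in water replicates 2, 3 and 7 and 4.62, 11.50 and 7.69 CPM in sorafenib replicates 5, 6 and 7. At day 28 they were 9.92, 10.7 and 12.5 CPM in water and 10.1, 7.53 and 12.9 CPM in sorafenib replicates 2, 3 and 4. Sorafenib libraries lay on both sides of the water range at each day. The log2 fold change was 0.28 ± 0.29 (SE) at day 14, -0.02 ± 0.24 at day 28 and 0.12 ± 0.20 for the mean (edgeR adjusted p = 0.69, 0.985 and 0.749).

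**Figure D2:**
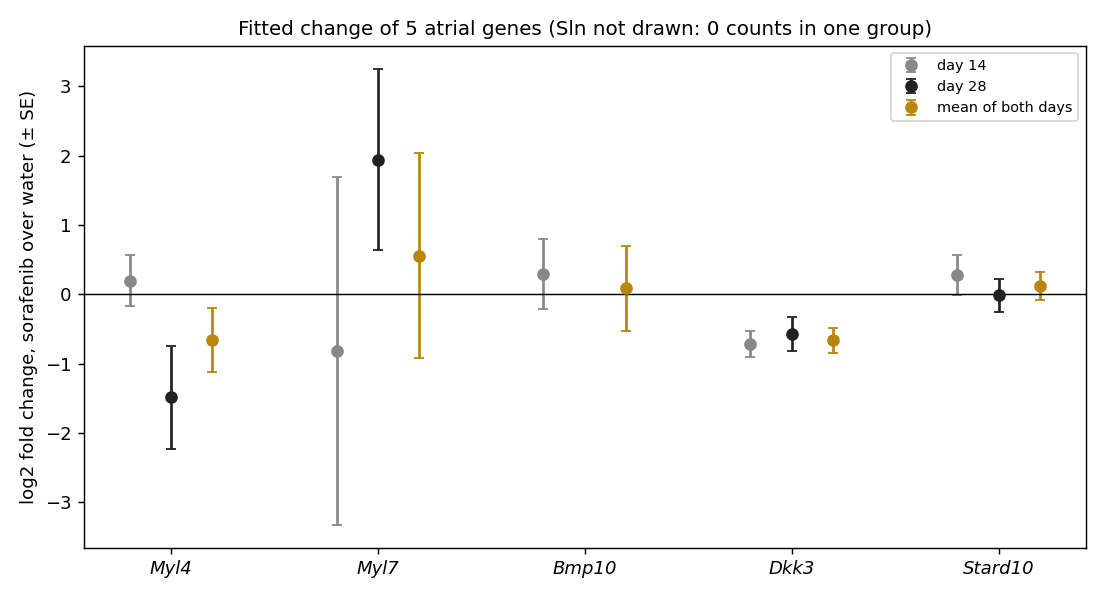
Points are log2 fold changes of sorafenib over water with their SE, for day 14, day 28 and the mean of both days. Sln is not drawn because 1 group has 0 counts, and Bmp10 has no value at day 28. Dkk3 lies below 0 in each (-0.72, -0.57 and -0.66), and the error bars of Myl7 span several log2 units.

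Over the comparisons with water, 0 of 6 atrial genes were called at day 14 and 0 of 5 tested at day 28, where 0% of all genes tested were called by edgeR on either day. At an unadjusted p below 0.05, 2 of 6 and 2 of 5 passed, Sln and Dkk3 in each case, as did 2440 and 2531 of all genes (14% and 14.9% of those tested). DESeq2 called 393 and 268 genes on those days. For the mean of both days 2 of 6 were called lower and 0 higher, against 2.41% and 2% of all genes tested (4.41% in either direction). The median log2 fold change of the 6 was -0.29, and -0.01 for all genes tested, and placing Sln at its bound left the former at -0.29. Whether fewer atrial cells or less RNA per cell lies behind a lower level cannot be told apart in bulk RNA.

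No atrial gene was called for a difference of the treatment effect between the days, where edgeR called 0% of all genes tested. The edgeR adjusted p was 0.999 for each of the 6. At an unadjusted p below 0.05 were 0 of the 6, against 803 of all genes (4.42% of those tested). DESeq2 called 5 genes. Between the water groups, day 28 against day 14, none of the 6 was called by edgeR in the fit of all 12 libraries, where 8.51% of all genes were, and 5.8% as higher. Myl4 came closest, with a log2 fold change of 2.09 ± 0.63 (SE, edgeR adjusted p = 0.054). It was called by DESeq2 (adjusted p = 0.0118) and by edgeR without water day 28 replicate 2 or 4 (0.0246 and 0.0211), and it was 0.56 without water day 28 replicate 3 (0.502). Stard10 was higher in water day 28 than in water day 14 by 0.76 ± 0.28 on the log2 scale (edgeR adjusted p = 0.108, and 0.0368 in a fit of the water libraries alone). Values for the other 4 were 0.36 ± 0.79 for Sln, -0.69 ± 2.08 for Myl7, -0.34 ± 0.78 for Bmp10 and -0.14 ± 0.25 for Dkk3. Each day came in its own count table. Any difference between the water groups therefore cannot be told apart from the age of the rats or from separate handling of the days.

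Setting each atrial gene against its ventricular counterpart within the same library removes the scaling between libraries. Sarcolipin made up 0.108%, 0.0248% and 0.0249% of the summed Sln and Pln counts in water day 14 replicates 2, 3 and 7 and 0.0246%, 0.00170% and 0.00882% in sorafenib replicates 5, 6 and 7. At day 28 the shares were 0.0233%, 0.136% and 0.0204% in water replicates 2, 3 and 4. They were 0% in the sorafenib libraries, which allows up to 0.00701%, 0.147% and 0.00504% in replicates 2, 3 and 4. Every sorafenib share as read lay below every water share of the same day, at day 14 by a narrow margin. The place of the shallow sorafenib day 28 replicate 3 is not settled. Its limit of 0.147% lies above all the water shares of that day.

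The mean difference of the Sln share over both days was -0.0504 percentage points (exact permutation test within days, two-sided, p = 0.005, the smallest it can give, 0.015 adjusted over the 3 shares). This test takes the 0 of the shallow sorafenib day 28 replicate 3 as read. Within a day the exact permutation test of 3 against 3 libraries cannot go below p = 0.1, which both days reached. On the log2 ratio scale the adjusted p was 0.135, and it was 0.06 to 0.15 when sorafenib day 14 replicate 6 or 7 or any 1 of the sorafenib day 28 libraries was left out. Pln itself had a log2 fold change of -0.23 ± 0.22 (SE, edgeR adjusted p = 0.547) and Atp2a2, the gene of SERCA2a, -0.37 ± 0.22 (adjusted p = 0.328), both for the mean.

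The Myl7 share of Myl7 plus Myl2 counts was 0.0112%, 0.0137% and 2.53% in water day 14 replicates 2, 3 and 7 and 1.95%, 0.0215% and 0.0325% in sorafenib replicates 5, 6 and 7. At day 28 it was 0.398%, 0.755% and 0.0511% in water replicates 2, 3 and 4 and 0.412%, 0.147% and 3.15% in sorafenib. The 95% Wilson intervals of the 3 highest, 2.41 to 2.66%, 1.82 to 2.09% and 3.03 to 3.27%, lie far above those of the other libraries, the highest of which ends at 0.813%. The mean difference was 0.325 percentage points (exact permutation p = 0.735, adjusted 0.82). It was -0.153 without sorafenib day 28 replicate 4.

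For Myl4 the share of Myl4 plus Myl3 counts lay between 0.0272% and 0.0948% in 11 libraries and was 0.405% in water day 28 replicate 3 (95% Wilson interval 0.366 to 0.449%). The mean difference was -0.0456 percentage points (exact permutation p = 0.82, adjusted 0.82) and turned to 0.0129 without that library. Intervals and limits here cover counting error only.

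**Figure D3:**
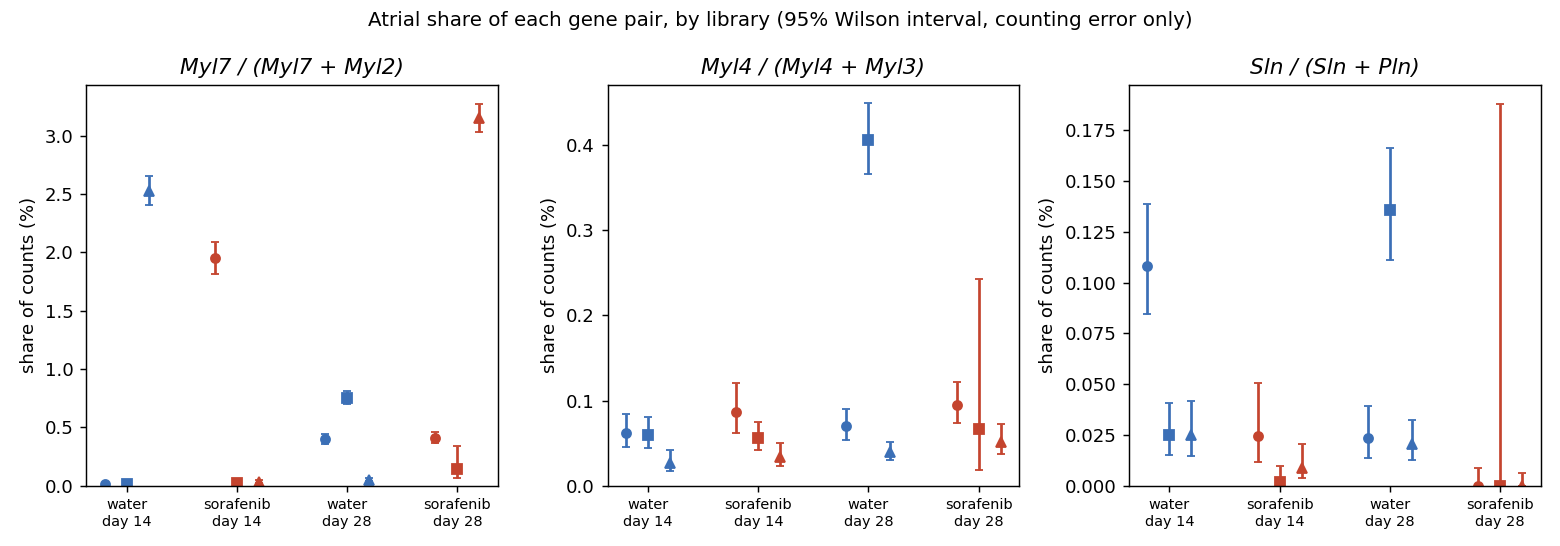
Each panel gives, per library, the share of counts that the atrial gene takes of itself plus its ventricular counterpart, in percent from 0, with 95% Wilson intervals (water in blue, sorafenib in red). Myl7 reaches 2.53%, 1.95% and 3.15% in 3 libraries of different groups, Myl4 0.405% in 1 library, and Sln is at 0% in the sorafenib libraries of day 28, with a wide interval in the shallow replicate 3.

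No pair of the 6 genes rose and fell together from library to library beyond the adjusted threshold. With the group mean taken off each library's log2 CPM, the 15 pairs had Pearson correlations from -0.51 to 0.70 over 12 libraries, 8 of them negative. None passed after adjustment over the 15 pairs (exact permutation within groups, smallest adjusted p = 0.394 for r and 0.324 for Spearman's rho). The highest was Dkk3 with Stard10 (r = 0.70, permutation p = 0.0262, rho = 0.79, permutation p = 0.0216), and it was 0.65 without the 2 libraries farthest from the median of Dkk3. Sln with Myl4 followed (r = 0.63, permutation p = 0.19, rho = 0.43, permutation p = 0.31). It fell to 0.21 without water day 28 replicate 3 and water day 14 replicate 2, so that relation rests on those libraries. All sorafenib day 28 libraries were at 0 counts of Sln and had no deviation, so its correlations rest on the other groups.

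Myl7 had r of 0.09 with Sln, 0.04 with Myl4, 0.10 with Bmp10, -0.32 with Dkk3 and -0.23 with Stard10. Water day 14 replicate 7 lay 5.04 above its group mean for Myl7 on the log2 scale, with Sln at -0.65, Myl4 at -0.57, Bmp10 at -0.11, Dkk3 at -0.24 and Stard10 at 0.01. Sorafenib day 14 replicate 5 lay 3.62 above for Myl7, with Sln at 0.66, Myl4 at 0.04, Bmp10 at 0.29, Dkk3 at -0.38 and Stard10 at -0.67. Sorafenib day 28 replicate 4 lay 2.79 above for Myl7, with Myl4 at -0.06, Bmp10 at -0.24, Dkk3 at 0.50 and Stard10 at 0.37, and with Sln at 0 counts like the rest of its group. Of the other 5 genes, a different set was above the group mean in each of these libraries.

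**Figure D4:**
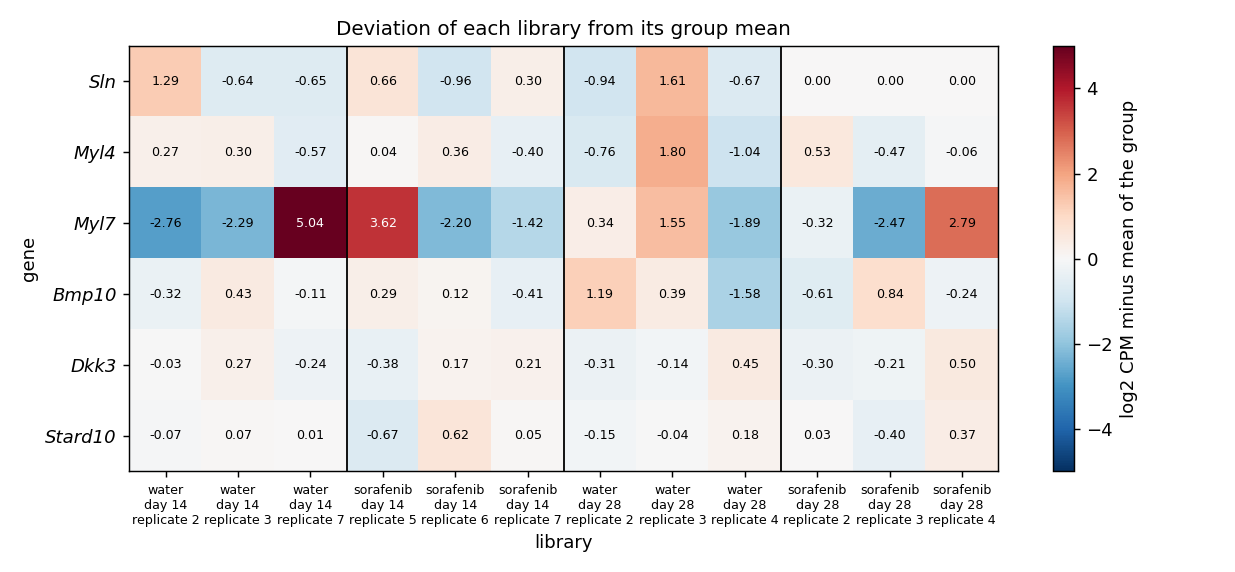
Each cell is the log2 CPM of a gene in 1 library minus the mean of its group, in red above and blue below. The row of Myl7 holds the widest deviations, from -2.76 to 5.04. Its highest library, water day 14 replicate 7, is below 0 for Sln (-0.65), Myl4 (-0.57) and Bmp10 (-0.11), while water day 28 replicate 3 is red for Sln (1.61), Myl4 (1.80) and Myl7 (1.55).

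Among 10717 other genes with a mean of at least 5 CPM, those most like the mean deviation of the 6 were Ccdc39 (r = 0.907), Scube2 (0.906), Srek1 (0.905), Hmgxb3 (0.902), Rufy3 (0.897), Atad2b (0.892), Cstf2 (0.880) and Socs7 (0.874), over 12 libraries. Without the shallow sorafenib day 28 replicate 3 they ranged from 0.864 to 0.927. That mean is drawn by Myl7, whose own r with it was 0.87, while those of Dkk3 and Stard10 were -0.33 and -0.20. These correlations are a description, since the libraries share depth and handling.

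Of 14 further genes known from the atria, 12 passed the filter, and none was called for the mean of both days, with a median log2 fold change of 0.05. Kcnj3, a subunit of the acetylcholine-gated potassium channel, had -0.71 ± 0.23 (SE, edgeR adjusted p = 0.0892), Clu, encoding the chaperone clusterin, -0.29 ± 0.12 (0.166), Nppa 1.53 ± 0.64 (0.176) and the transcription factor gene Nr2f1 -0.52 ± 0.23 (0.186). At day 14 Nppa had 11.2, 20.7 and 12.7 CPM in water replicates 2, 3 and 7, and 64.7, 37.7 and 212 CPM in sorafenib replicates 5, 6 and 7. At day 28 it was at 159, 250 and 18.9 CPM in water and at 295, 149 and 58.5 CPM in sorafenib. In water day 14 and both sorafenib groups the library highest in Myl7 was not the highest in Nppa, while water day 28 replicate 3 was the highest of its group in both. Between the water groups Tbx5, a transcription factor gene of heart development, and Clu were higher at day 28 than at day 14, by 0.92 ± 0.20 and 0.91 ± 0.18 (SE, edgeR adjusted p = 0.0135 and 0.00665).

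The 8 ventricular genes had a median of -0.23 for the mean of both days, with 1 above 0 and 7 below. Of them 1 was called higher and 1 lower, against 2% and 2.41% of all genes tested. Myh7, the slow myosin heavy chain, rose by 0.86 ± 0.21 (SE, edgeR adjusted p = 0.0375) and Hey2, a transcriptional repressor of the ventricles, fell by 0.83 (log2 fold change -0.83 ± 0.22, adjusted p = 0.0462). The other 6 were not called, among them Irx4 (-0.33 ± 0.24) and Lrrc10 (-0.27 ± 0.23). Of 12 genes of all heart muscle cells none was called, with Actc1, cardiac actin, at -0.76 ± 0.23 (adjusted p = 0.0662), Gata4 at -0.29 ± 0.12 and a median of -0.07.

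Genes of the proteins' own pathways were as follows for the mean of both days. Of 16 tested genes around BMP10 signalling 2 rose, Id1, a target of BMP receptors (0.51 ± 0.12, edgeR adjusted p = 0.0379), and Tcap, encoding the sarcomeric protein telethonin (0.84 ± 0.21, 0.0407). Of all genes tested 2% were called higher, and 4.41% in either direction. Within the list 8 genes lay above 0 and 8 below, with a median log2 fold change of 0.06. Smad6, an inhibitor of BMP signalling, had 0.53 ± 0.18 (0.0964), and the receptor gene Bmpr1a -0.36 ± 0.14 (0.125). Apart from Dkk3 itself, 6 genes of the Dickkopf family and receptors, with Tgfbr2 placed among them, were tested and none was called. Tgfbr2 was at -0.29 ± 0.12 and Lrp5 at -0.24 ± 0.11, and the median of the 6 was -0.26. Of 13 genes tested with a START domain, the lipid-binding fold of STARD10, only Stard8 was called (-0.42 ± 0.11, adjusted p = 0.0408). The median of that list was 0.02, with 7 above 0 and 6 below. Stard4 had -0.43 ± 0.14 (0.0961). None of 10 other light chain genes and their kinases was called, with Myl6 at -0.31 ± 0.11 (0.105). The same held for 4 genes around the calcium pump other than Sln, with Atp2a1 at 0.92 ± 0.36 (0.137).

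Markers of tissue that lies beside the atria were read for the same libraries. Of 7 tested genes of the sinus node and conduction system Smoc2 was called, at -0.66 ± 0.16 (SE, edgeR adjusted p = 0.0382). For comparison, 4.41% of all genes tested were called in either direction. Hcn4, the pacemaker channel, had -0.98 ± 0.30 (0.0715), while Cntn2 went the other way, at 0.555 ± 0.183 (0.0899). Of the 7, 3 were above 0 and 4 below, with a median log2 fold change of -0.08. Isl1 was at 0 counts in all 12 libraries. The summed level of that list was 79.1 to 122 CPM in water day 14, 90.4 to 97.0 in sorafenib day 14, 129 to 150 in water day 28 and 112 to 134 in sorafenib day 28, so it was lower with sorafenib at day 28 in 2 of 3 libraries than in any water library. None of 8 genes of large-vessel smooth muscle was called (Myh11 0.48 ± 0.20, adjusted p = 0.153). Nor was any tested gene of fat cells (Pck1 -2.43 ± 0.82, 0.095), mesothelium (Krt19 -1.28 ± 0.84, 0.365) or blood (Slc4a1 -0.56 ± 0.26, 0.206). Skeletal muscle had none called either, with Atp2a1 at 0.92 ± 0.36 (0.137) and Myh2 at -0.75 ± 0.52 (0.389).

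Mesothelial genes, which cover the outer surface of the heart, differed between the water groups. Of 6 tested, 4 were called lower at day 28 than at day 14, while 8.51% of all genes tested were called in either direction. They were Upk3b (log2 fold change -5.21), Upk1b (-6.03), Msln (-5.71) and Lrrn4 (-3.11) (edgeR adjusted p = 0.0348, 0.00483, 0.0103 and 0.0214). These sizes are uncertain, since water day 28 held only 4, 2, 14 and 40 counts of them over its 3 libraries. Water day 14 held 154, 149, 701 and 326, and Msln ran there from 0.939 to 20.8 CPM. The mesothelial list summed to 42.9 to 80.8 CPM in water day 14 and 15.3 to 33.9 in water day 28, against 25.1 to 52.8 and 24.9 to 49.3 in the sorafenib groups of those days. The part of these genes in the atrial readings was not tested.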

How the data were processed

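After removal of ribosomal RNA, 12 rat heart libraries were sequenced from both ends, per the labels' protocols. The authors deposited read counts per gene, 1 table per day, made with featureCounts 2.0.1 in paired mode without a strand option on mRatBN7.2, per the file headers. The submitters' processing notes name STAR without a version. Of the day 14 columns, 2 fitted no sample's labels and were not used. No sample or gene was imputed.

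Counts were tested with edgeR 4.0.16 (R 4.3.3) by the robust quasi-likelihood test after filterByExpr and TMM scaling, with adjusted p below 0.05 called. Each day was fitted alone. The mean of both days, the difference and the water groups came from a fit of all 12 libraries. SE is the log2 fold change over the root of F. Shares were tested by exact permutation within days. Other settings tried were RLE factors, DESeq2 1.42.0, no filter, a filter of 1 CPM in 3 libraries, no robust dispersion, other sets of libraries, a replicate block, other share scales and each library left out. Leaving out libraries for the Sln bound and ratio was chosen after seeing the data.

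The members, the gene lists and the tests were chosen with earlier results of these data known. All 6 members are named in each comparison. Of each list, up to 4 genes of smallest p for the mean and any called there were eligible to be named. The code was tested on simulated counts. No replicate pair agreed within sampling noise (smallest chi-square per gene 8.08).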

Additional observations from a re-analysis of the deposited data

How the results depend on the processing

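The direction and call of the 29 log2 fold changes of the atrial genes held in 361 of 409 alternatives. In 28 the sign turned, and none of those was for Sln or Dkk3 in the mean of both days. Only these 2 were called in the main analysis, so most of the 361 are uncalled results that stayed uncalled. Where DESeq2 gave no adjusted p, an unchanged direction was counted as held. The call for the mean was kept in 13 of 16 alternatives for Sln and in 6 of 17 for Dkk3. Depth limits Bmp10, with at most 14 counts, and sorafenib day 28 replicate 3. When a group keeps 2 libraries the fit assumes that they vary like the rest. The cause of the changes below was not tested.

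Counts of genes called at day 14, day 28, the mean and the difference were 0, 0, 801 and 0 in the main analysis and 393, 268, 1765 and 5 with DESeq2. Without the filter day 14 gave 87 and day 28 gave 82, and the fit of all 12 libraries gave 4 and 53. Leaving out each library gave 0 to 27 (day 14), 0 to 3 (day 28), 35 to 1562 (mean), 0 to 1 (difference) and 558 to 1329 genes (water over time, 1546 with all). Those at day 14 came without water replicate 2 (27) or sorafenib replicate 5 (9), and those at day 28 without water replicate 3 (3), sorafenib replicate 2 (1) or 4 (2). For the mean the count rose to 1562 when sorafenib day 28 replicate 4 was left out. It was 35 when replicate 2 of that group was left out, and any other library but water day 28 replicate 2 and sorafenib day 28 replicate 3 lowered it by over 1.5 times. For water over time replicates 2 and 3 of day 14 and 3 and 4 of day 28 did so, down to 558.

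The replicate block called 108 genes at day 28. The deviations of same-numbered libraries had correlations of 0.115, 0.002 and 0.163. These cannot tell whether such libraries share more than a number, which the labels do not state. In water over time, with numbers 2 and 3, the block gave 2086 genes turned Myl7 to 6.17 (edgeR adjusted p = 0.000268) and Bmp10 to 0.15, and gave Dkk3 -0.50 (0.0392).

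The Sln bound was 7.56-fold with 3 counts in each library as the floor and 8.64-fold to 30.0-fold with a library left out. The Sln share difference was -3.05 as a log2 ratio, a size set by the 0.5 added to the counts of 0 and no measure of the change, and it ranged from -0.0603 to -0.0314 percentage points with a library left out, that of Myl7 from -0.153 to 0.744 and that of Myl4 from -0.0786 to 0.0129.

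The log2 fold change of Stard10 at day 28 was 0.00 with the stricter filter. With a library left out, ranges that crossed 0 were as follows. At day 14 Myl4 had -0.05 to 0.38, Myl7 -4.85 to 5.56 and Stard10 -0.08 to 0.55. At day 28 Myl4 had -1.89 to 0.02, Myl7 -0.26 to 2.89 and Stard10 -0.20 to 0.09. For the mean Myl4 had -0.87 to 0.10, Myl7 -1.44 to 3.75, Bmp10 -0.21 to 0.58 and Stard10 -0.07 to 0.28. For the difference Dkk3 had -0.21 to 0.38, Myl7 -3.60 to 6.81, Bmp10 -0.99 to 0.58 and Stard10 -0.57 to 0.04. For water over time Sln had -1.03 to 1.40, Myl7 -1.65 to 5.68, Bmp10 -1.31 to 0.24 and Dkk3 -0.40 to 0.01.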

Other observations

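The genes that followed single atrial genes around the group means were listed after the values had been seen, as a description over 12 libraries with no test. Highest for Myl7, among genes with a mean of at least 5 CPM, were Ptprg (r = 0.909), Ccn1 (0.906), Cep43 (0.906), Zfp709l1 (0.897), Cep57 (0.896), Egr1 (0.894), Sptan1 (0.881) and Hnrnpm (0.880). Egr1, an immediate early transcription factor gene, is among them. Water day 14 replicate 7 had 26.3 CPM of Egr1 against 4.70 and 8.14 in replicates 2 and 3. In sorafenib day 14 replicate 5 had 4.98 CPM of Egr1 against 1.84 and 2.79. In sorafenib day 28 replicate 4 had 41.9 against 32.0 and 29.3, and in water day 28 replicate 3 had 83.6 against 72.5 and 76.3. In each of the 4 groups the library highest in Myl7 was thus also the highest in Egr1. That match is no separate finding, since Egr1 was picked for its correlation with Myl7 around the group means. Across groups the order could differ. Sorafenib day 14 replicate 5 had 45.8 CPM of Myl7 and 4.98 of Egr1, and water day 28 replicate 4 had 3.08 and 76.3. Ccn1 had 35.9 CPM in water day 14 replicate 7 against 17.6 and 19.4.

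For Sln the gene most alike was Tgfb2, a transforming growth factor gene (r = 0.929, and 0.934 without sorafenib day 28 replicate 3). Leaving out that library says little here, since Sln had no deviation in any sorafenib day 28 library. Tgfb2 was highest where Sln was highest among the water libraries of each day. This match, too, is no separate finding, since Tgfb2 was picked for its correlation with Sln around the group means. Tgfb2 had 29.2 CPM in water day 28 replicate 3 against 16.9 and 17.1 in replicates 2 and 4. In water day 14 it had 21.5 CPM in replicate 2 against 13.5 and 17.9 in replicates 3 and 7.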
